A study of Mus musculus with 2 samples.

Results

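A set of 10 genes of the circadian clock, the daily timekeeper that runs in nearly every mammalian cell, was followed in total RNA of mouse gastrocnemius, the large calf muscle. They were the activator genes Arntl, Clock and Npas2, the repressor genes Per1, Per2 and Cry1, and the genes of the D-box factors Dbp, Tef, Hlf and Nfil3. These 10 of the 55536 annotated genes were picked by name and chosen on the measured ratios between the libraries, because the clock arms had moved apart, so their ratios are a description with no test. The animals were 2 male B6CASTF1/J mice aged 36 days, an F1 cross of C57BL/6 with CAST, and no treatment is named in the labels. They are biological replicates 1 and 2 of a single group. Each biosample has its own mouse number, although both share a donor entry, so the spread between them may be partly technical. Each library started from 300 ng of RNA with ERCC spike-ins, and reads of the parental alleles were not separated. The labels used here give no time of day of collection. RNA was taken from whole muscle, so a level mixes all its cell types, and fewer cells of a type and less RNA per cell cannot be told apart.

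The clock is a delayed negative feedback loop. ARNTL (also called BMAL1) pairs with CLOCK or its relative NPAS2 and switches on genes that carry E-boxes, among them the Per and Cry genes, whose proteins pair up and shut that activity down. A second loop runs through the nuclear receptors REV-ERB (Nr1d1, Nr1d2) and ROR, which repress and activate genes such as Arntl, Clock, Npas2, Cry1 and Nfil3 through the RORE element. DBP, TEF and HLF are PAR bZIP proteins that activate D-box genes, and NFIL3 represses through the same element. In a cycling tissue Arntl and Dbp peak at nearly opposite times.

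Short stretches around clock elements in the promoters are shown because these are the elements through which the clock loops are known to act on one another. RefSeq start sites (GRCm38.p6, the same build as mm10) gave 14 windows, each from 250 bases before to 50 after a start, for 9 of the 10 genes, all but Per2. Capitals mark the match, read along the gene's strand, and no printed match overlaps another, although the pair of Cry1 stretches share flanking bases.
Arntl, RORE core, chr7:113207530-113207558, plus strand: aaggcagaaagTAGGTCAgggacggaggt
Nfil3, RORE core on the opposite strand, chr13:52981034-52981062, minus strand: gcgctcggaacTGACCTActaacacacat
Cry1, E-box, chr10:85185097-85185126, minus strand: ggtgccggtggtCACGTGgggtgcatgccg
Cry1, E'-box on the opposite strand, chr10:85185116-85185145, minus strand: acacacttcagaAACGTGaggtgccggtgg
Per1, E-box, chr11:69098771-69098800, plus strand: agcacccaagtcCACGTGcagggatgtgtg
Tef, E-box before the upstream RefSeq start, chr15:81802534-81802563, plus strand: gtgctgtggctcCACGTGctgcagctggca
Tef, E-box before the downstream RefSeq start, chr15:81811264-81811293, plus strand: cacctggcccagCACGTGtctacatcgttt
Hlf, CRE, chr11:90390908-90390937, minus strand: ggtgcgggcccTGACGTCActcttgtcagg

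Both strands were searched for the E-box CACGTG, the E'-box CACGTT, the D-box TTATGTAA or TTACGTAA, the cyclic AMP element CRE TGACGTCA and the RORE core TAGGTCA or TGGGTCA. The RORE core was found in 2 of the 14 windows, those of Arntl and Nfil3, and in 6.45% of all 32851 windows in the table. Both genes were lower in replicate 2, as were 6 of the 10, so nothing is read from their direction. The E-box was found in 4 of the 14 windows, those of Cry1, Per1 and Tef, and in 7.15% of all windows. It was thus present both in genes lower (Cry1, Per1) and in a gene higher (Tef) in replicate 2. The E'-box matched 1 Cry1 window (4.68% of all windows), and the CRE matched the Hlf window (1.79%). No D-box was found in these windows, against 1.06% of all windows. The first base of the CRE lay 9 bases before the Hlf start and that of the Cry1 E-box 60 bases before its start. In the mm10 annotation the Arntl, Nfil3 and upstream Tef matches lie in an exon, the Per1 and downstream Tef matches in an intron of a longer form, and the Cry1 and Hlf matches upstream of all annotated transcripts. A match of letters is a description and not a bound site, and the windows of Dbp, Clock and Npas2 held none of these letters.

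Levels are given as TPM, which scale reads by transcript length and by library total, so genes can be compared with each other. The libraries held 36952277 (replicate 1) and 38754338 (replicate 2) expected counts. A log2 ratio sets replicate 2 against replicate 1 after adding 0.1 to each TPM, so ratios of scarce genes are understated. The interval after a ratio is the exact binomial 95% interval of the read counts behind it, on the scale of TPM without the added 0.1. For scarce genes such as Npas2 it is therefore not centred on the printed ratio. Neither that interval nor the authors' credibility interval, which also takes in read assignment, includes the spread between animals. With a single animal on each side there is no replicate check and no p-value. To be called, a gene needed 50 or more expected counts on average, a ratio of 2-fold or more and credibility intervals that were apart. All 10 clock genes reached the count of 50.

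Of the clock genes, 6 stood lower in replicate 2 and 4 stood higher, and the division did not follow the names of the arms. The 3 activators, Nfil3, Per1 and Cry1 were lower, whereas Dbp, Tef, Hlf and Per2 were higher. The repressors as a set therefore did not move together, and the label of opposed activator and repressor arms holds for Per2 but not for Per1 or Cry1. Only 2 of the 10 genes were called: Dbp was higher in replicate 2, where 0.447% of 11632 genes with enough counts were called, and Npas2 was lower, where 1.76% were. By credibility intervals that were apart at any fold, 2 clock genes were higher (Dbp and Tef) and 5 lower (Arntl, Clock, Npas2, Per1 and Nfil3). The same held for 9.50% of genes on the higher side and 9.39% on the lower side. As the genes were picked from this contrast, nothing is read from these shares. Per2, Cry1 and Hlf had overlapping credibility intervals. Over those 11632 genes the median log2 ratio was 0.00 and the 5th and 95th percentiles were -0.71 and 0.48.

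**Figure D1:**
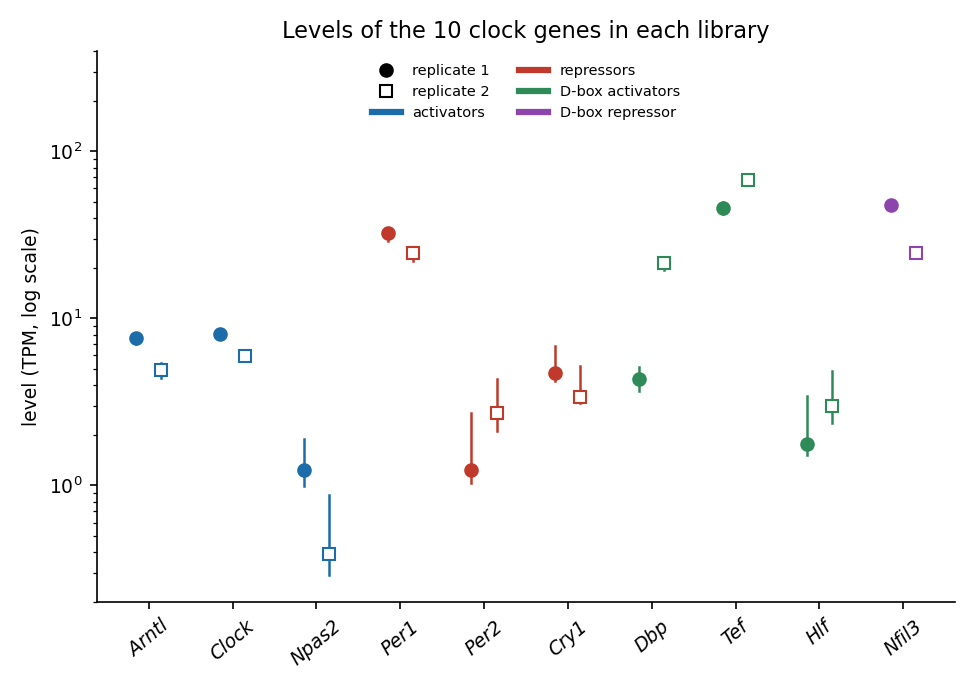
Level of each of the 10 clock genes (TPM, log axis) in replicate 1 (filled circles) and replicate 2 (open squares), coloured by role; vertical lines are the deposited credibility intervals, which need not be centred on the level. Dbp moved from 4.34 to 21.4 TPM, whereas Nfil3 and the activators sat lower in replicate 2.

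Among the activators, Arntl encodes the partner without which the loop does not run. Arntl (ENSMUSG00000055116.8, chromosome 7, 113207465-113314126) was at 7.63 TPM in replicate 1 and 4.89 TPM in replicate 2, from 676 and 423 expected counts. Its log2 ratio was -0.63 (interval -0.82 to -0.46), or 1.55-fold more in replicate 1, short of the 2-fold needed for a call. Clock (ENSMUSG00000029238.11, chromosome 5, 76209868-76304792), the partner of Arntl with acetyltransferase activity, was at 8.10 and 5.99 TPM, a log2 ratio of -0.43 (-0.54 to -0.33), or -0.27 with spike-in scaling. Npas2 (ENSMUSG00000026077.15, chromosome 1, 39193731-39363236), the relative that can stand in for CLOCK, was at 1.23 and 0.390 TPM. Npas2 was the lowest of the 10 genes on average (mean 0.810 TPM, SD 0.594, n = 2) and rested on 123 and 38 expected counts. Its log2 ratio was -1.44 (-2.22 to -1.12). With a pseudocount of 1 the ratio was -0.68 and Npas2 was not called, nor was it at a minimum mean count of 200 or at 3-fold. All 3 activators were thus lower in replicate 2, the scarcest of them by the largest factor, and Clock exceeded Npas2 by 6.59-fold in replicate 1 and 15.4-fold in replicate 2. Together they came to 17.0 and 11.3 TPM.

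The repressors were led by Per1, a gene that is also switched on quickly by cyclic AMP and glucocorticoid signals. Per1 (ENSMUSG00000020893.17, chromosome 11, 69095217-69109960) was at 32.4 TPM in replicate 1 and 24.7 TPM in replicate 2. Its log2 ratio was -0.39 (-0.47 to -0.31), or -0.23 with spike-in scaling, with credibility intervals of 29.1 to 34.4 and 22.0 to 26.7 TPM. Cry1 (ENSMUSG00000020038.10, chromosome 10, 85131700-85185064), the strong late repressor, was at 4.74 and 3.38 TPM, a log2 ratio of -0.48 (-0.72 to -0.26). Its credibility intervals, 4.23 to 6.85 and 3.10 to 5.20 TPM, overlapped.

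Per2 went the other way. Per2 (ENSMUSG00000055866.9, chromosome 1, 91415982-91459324), the PERIOD gene whose product scaffolds the repressor complex, was at 1.23 and 2.73 TPM, from 208 and 414 expected counts. Its log2 ratio was 1.09 (0.91 to 1.40), past 2-fold, but its credibility intervals (1.04 to 2.71 and 2.12 to 4.35 TPM) overlapped and it was not called. Per2, at 2.13-fold, was thus just past the 2-fold threshold, and Nfil3, at 1.94-fold, just short of it. Per1 made up 84.4% of the 3 repressors' TPM in replicate 1 and 80.2% in replicate 2, so their summed level (38.3 and 30.8 TPM) followed Per1. Per1 stood 26.3-fold above Per2 in replicate 1 and 9.04-fold above it in replicate 2.

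The D-box factors held the most abundant transcripts and the largest ratio. Dbp (ENSMUSG00000059824.12, chromosome 7, 45705088-45710203), a direct E-box target with one of the strongest daily swings of any gene, was at 4.34 TPM in replicate 1 and 21.4 TPM in replicate 2. The counts behind these levels were 190 and 1003, and the log2 ratio was 2.27 (2.08 to 2.53), or 4.84-fold. The credibility intervals were far apart, 3.67 to 5.14 and 19.5 to 22.7 TPM. Sphk2, a sphingosine kinase gene on the opposite strand that overlaps Dbp, was at 4.32 and 5.13 TPM. The sources used here do not say whether counting used strand, so reads of these genes cannot be told apart with certainty. Tef, Arntl, Clock and Npas2 also overlap other annotated genes, of which only Ube2n-ps1, a pseudogene on the strand of Clock at 24.3 and 24.9 TPM, exceeded 1 TPM.

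Tef (ENSMUSG00000022389.15, chromosome 15, 81802421-81826863) was the most abundant of the 10 genes on average, at 45.6 and 67.7 TPM. Its log2 ratio was 0.57 (0.51 to 0.63), or 1.48-fold. Hlf (ENSMUSG00000003949.16, chromosome 11, 90336536-90390895) was at 1.78 and 3.00 TPM, a log2 ratio of 0.72 (0.50 to 1.00), with overlapping credibility intervals. The ratio was 0.31 in the second transcript table and 0.47 with counts scaled to library size alone. The 3 D-box activators were all higher in replicate 2 and summed to 51.8 and 92.1 TPM. Tef supplied 88.2% of that sum in replicate 1 and 73.5% in replicate 2, while Dbp supplied 8.38% and 23.2%.

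Nfil3 (ENSMUSG00000056749.7, chromosome 13, 52967209-52981073), the D-box repressor also known as E4BP4, ran opposite to them. Nfil3 was at 47.9 TPM in replicate 1 and 24.7 TPM in replicate 2, from 2912 and 1506 expected counts. Its log2 ratio was -0.95 (-1.05 to -0.87), or 1.94-fold more in replicate 1, just short of a call. The balance of D-box repressor to activators therefore differed between the animals: Nfil3 over the summed D-box activators was 0.925 in replicate 1 and 0.268 in replicate 2. Nfil3 over Dbp alone was 11.0 and 1.15.

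A gap within each opposed set compares the groups with each other, so a common scaling of a library nearly cancels. The mean log2 ratio was -0.83 for the 3 activators and 0.07 for the 3 repressors, a gap of -0.91. The activator mean joined Arntl (-0.63) and Clock (-0.43) to Npas2 (-1.44). The repressor mean joined Per1 (-0.39) and Cry1 (-0.48) to Per2 (1.09). This gap therefore rested mostly on Npas2 and Per2, the scarcest of the 10 genes by mean level. With a pseudocount of 1, which weighs most on scarce genes such as Npas2, that gap was -0.53. For Nfil3 against the mean of the D-box activators (-0.95 against 1.19) the gap was -2.14. The wider gap was therefore inside the D-box set, where a single gene stood against a mean. That mean joined Tef (0.57) and Hlf (0.72) to Dbp (2.27), so it rested mostly on Dbp. Arntl over Dbp, the pair with opposite daily peaks, was 1.76 in replicate 1 and 0.229 in replicate 2.

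**Figure D2:**
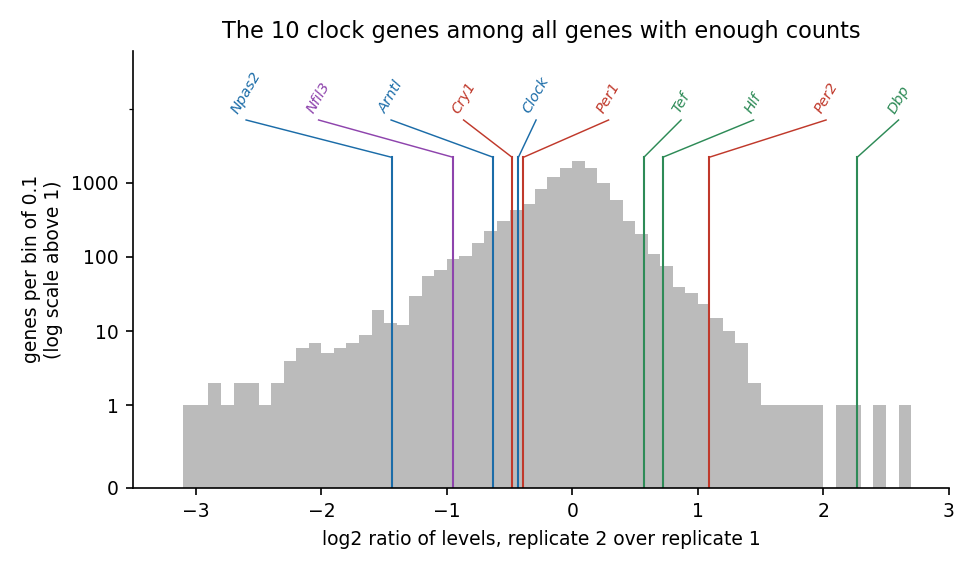
Number of genes per bin of log2 ratio (replicate 2 over replicate 1, log axis above 1) for the 11632 genes with a mean expected count of at least 50, with the 10 clock genes drawn as coloured lines by role. The axis is cut, so the most extreme genes are not drawn (ratios ran from -4.79 to 10.79). Dbp at 2.27 lies in the sparse right tail and Npas2 at -1.44 in the left tail, while Clock, Per1 and Cry1 lie on the shoulder.

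The order of levels differed between the animals. In replicate 1 Nfil3 ranked 1st and Tef 2nd, with Tef over Nfil3 at 0.954 and overlapping credibility intervals (45.1 to 48.6 and 41.9 to 49.5 TPM). In replicate 2 Tef led alone at 2.75 times Nfil3, and Per1 and Nfil3 were level at 24.7 TPM. That tie includes 8.56 TPM of the short form Per1-204, from 108 reads. In the second transcript table replicate 2 gave Nfil3 34.3, Dbp 28.0 and Per1 21.7 TPM, so Per1 and Nfil3 were not level there. Dbp climbed from rank 7 to rank 4, above Clock, Arntl and Cry1. In replicate 1 the credibility intervals of Dbp and Cry1 (3.67 to 5.14 and 4.23 to 6.85 TPM) overlapped. In the second transcript table Dbp was already above Cry1 in replicate 1. By mean and SD (n = 2) the order was Tef (56.7 ± 15.6 TPM), Nfil3 (36.3 ± 16.4), Per1 (28.5 ± 5.43), Dbp (12.9 ± 12.0), Clock (7.04 ± 1.49), Arntl (6.26 ± 1.94), Cry1 (4.06 ± 0.962), Hlf (2.39 ± 0.863), Per2 (1.98 ± 1.06) and Npas2 (0.810 ± 0.594 TPM). For all 9 pairs of neighbours in this order the ranges of mean ± SD overlapped. These ranges ignore that both genes of a pair were measured in the same libraries. Per1 over Dbp, Clock over Arntl, Arntl over Cry1, Cry1 over Hlf and Hlf over Per2 kept their order in both animals. The other pairs were level or reversed in 1 animal. In the second transcript table Dbp stood above Per1 in replicate 2, and Arntl above Clock in replicate 1. With 2 animals the SD itself is poorly known.

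The rest of the clock was described from 4 lists of 26 genes. Among the other repressors, all 5 stood higher in replicate 2, with a median log2 ratio of 0.80 against 0.01 over 11467 of the genes with enough counts. Per3, another PERIOD gene, was called higher, as were 0.447% of the genes with enough counts. It was at 1.48 and 3.21 TPM (log2 ratio 1.07). In the second transcript table its log2 ratio was 0.87, and Bhlhe40 was called there in its place. Bhlhe40 and Bhlhe41, which encode DEC repressors that compete for E-boxes, were at 16.4 and 29.1 TPM and at 13.1 and 21.4 TPM, with log2 ratios of 0.82 and 0.70. Ciart, the repressor CHRONO, was at 0.990 and 1.80 TPM, and Cry2 at 5.78 and 6.85 TPM, both with overlapping credibility intervals. The repressors outside the 10 genes thus ran with Per2 and not with Per1 or Cry1.

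In the stabilising loop, Nr1d1 (REV-ERB alpha) was at 29.5 TPM in replicate 1 and 56.4 TPM in replicate 2. Its log2 ratio of 0.93 (0.86 to 1.01) was just short of 2-fold, and 1.09 with spike-in scaling. Nr1d2 (REV-ERB beta) was at 21.7 and 33.1 TPM (log2 ratio 0.61). For the opposing activator Rora (21.5 and 23.8 TPM) the log2 ratio was 0.15. Rorb, with 12 and 7 expected counts, was too low to describe. None of the 5 was called, though 4 had credibility intervals apart, all higher in replicate 2. Of all genes with enough counts, 9.50% had intervals apart on that side. Rora was level (0.00) in the second transcript table. Arntl over Nr1d1, a repressor of Arntl, was 0.259 in replicate 1 and 0.0867 in replicate 2.

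The kinases and ligase subunits that modify and degrade clock proteins had a median log2 ratio of 0.07 (-0.07 in the second transcript table), and none of the 9 was called. Csnk1d (log2 ratio 0.09) and Csnk1e (0.14), casein kinases that phosphorylate PER proteins, had overlapping credibility intervals. The same held for Csnk2a1 (0.19), Csnk2b (-0.04), Gsk3b (0.05), Btrc (0.05) and Fbxw11 (0.03). The sign of each of these 7 ratios turned under at least 1 other scaling or quantification. Fbxl21 had 2 expected counts in each library.

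The 7 output genes were mixed. Of them 3 were higher and 4 lower, and their median log2 ratio was -0.32, or 0.12 over those of mean TPM 5 or more. Usp2, a deubiquitinase gene with a daily rhythm in many organs, was at 82.2 and 103 TPM (log2 ratio 0.32), and Nampt, the NAD salvage enzyme, at 23.6 and 30.1 TPM (0.35). In the second transcript table these ratios were smaller, 0.08 for Usp2 and 0.14 for Nampt. Tsc22d3 was at 157 and 119 TPM (-0.40), Wee1 at 1.62 and 0.900 TPM (-0.78), Tspan4 at 3.67 and 2.92 TPM (-0.32), and Por at 9.79 and 10.7 TPM (0.12). The sign turned for Por in the second transcript table (-0.07) and for Tspan4 with counts scaled to library size alone (0.02). Cdkn1a, the cell cycle inhibitor p21, was the single gene called, at 19.8 and 7.12 TPM (log2 ratio -1.46), and it also responds to stress signals. Of all genes with enough counts, 1.76% were called lower.

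**Figure D3:**
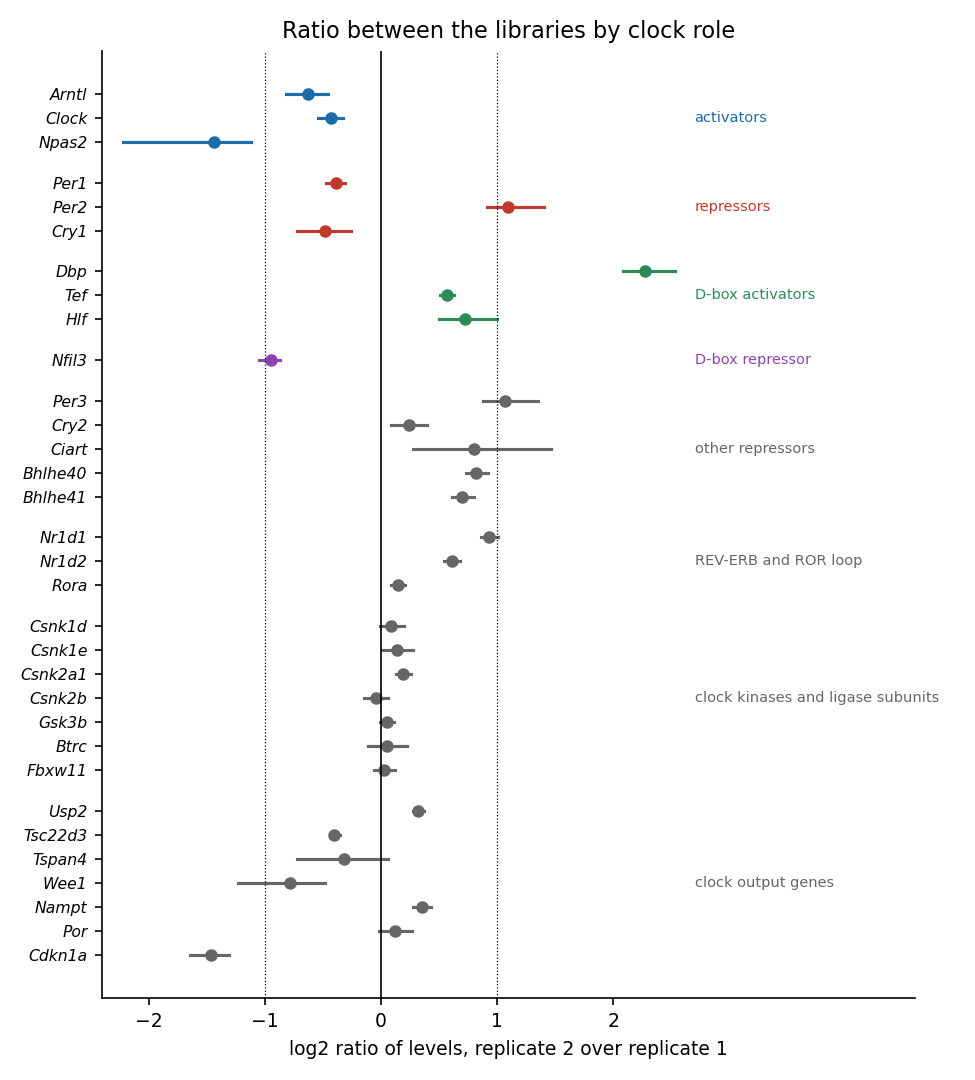
Log2 ratio of levels (replicate 2 over replicate 1) for the 10 clock genes and 22 further clock genes by role; bars are exact binomial 95% intervals of the counts and dotted lines mark 2-fold. Rorb and Fbxl21, with few reads, are among the genes left out; the other repressors and both REV-ERB genes lie right of 0, as do Dbp, Tef, Hlf and Per2.

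Other signals moved beside the clock genes. Of 14 immediate early genes, 13 were lower in replicate 2 and 6 were called, with a median log2 ratio of -1.11. Over the 11632 genes with enough counts 50.5% were higher in replicate 2 and 1.76% were called lower, and their list median was 0.01. Nr4a1 was at 110 and 61.5 TPM and Nr4a3 at 21.4 and 3.67 TPM. Against the same background, 8 of 11 glucocorticoid target genes were lower and 4 were called; Ddit4 was at 85.8 and 7.39 TPM, whereas Pdk4 was level at 591 and 590 TPM. Per1 and Nfil3 can be induced by such signals, and the part of these signals in their lower levels was not tested. Tsc22d3 is in both the output list and the glucocorticoid list.

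All 5 muscle fibre markers exceeded 1 TPM in both animals and differed little (Acta1 22669 and 25019 TPM, Ckm 17301 and 19516 TPM). They mark muscle fibres in general, so they do not test which muscle was taken. The markers of 4 other cell types were lower in replicate 2 throughout their lists. Schwann cell markers (8 of 8) summed to 472 and 108 TPM. Fibroblast markers (6 of 6) summed to 1737 and 901 TPM, with Col1a1 at 730 and 326 TPM. Tendon cell markers (6 of 6) summed to 148 and 101 TPM, with Thbs4 at 56.9 and 49.6 TPM and Mkx at 2.43 and 0.640 TPM. Macrophage markers (6 of 6) summed to 33.0 and 20.2 TPM, with C1qa at 9.09 and 5.47 TPM and Csf1r at 8.48 and 4.30 TPM. Adipocyte markers were higher in 5 of 6 (107 and 133 TPM), with Fabp4 at 79.3 and 84.5 TPM and Cidec at 2.64 and 5.79 TPM. Endothelial markers, 2 higher and 3 lower in replicate 2, summed to 45.0 and 45.1 TPM. The 2 higher ones were Cdh5 at 17.8 and 18.7 TPM and Kdr at 2.69 and 5.12 TPM. Cdh5 had overlapping credibility intervals and was lower in replicate 2 in the second transcript table (33.2 and 28.0 TPM). No marker of any list was at 0 in both libraries. The part of cell make-up in the clock ratios was not tested.

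Transcript forms were not used to choose the genes. The annotation lists 49 forms of the 10 genes, from 1 for Nfil3 to 10 for Tef, and the leading form of all 10 was protein-coding. Shares of reads are given with Wilson 95% intervals, which cover counting only and take the assignment of reads among forms as given.

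Dbp had the largest share of reads in retained-intron forms of the set. Its retained-intron forms took 23.5% of Dbp reads in replicate 1 (18.2 to 30.2) and 24.4% in replicate 2 (21.8 to 27.1). The share was thus alike in both animals within counting error, while the gene's level differed 4.84-fold. By TPM the share was 31.3% and 26.1%, and it was 39.9% and 31.2% in the second transcript table. Within it, the form Dbp-202 went from 10.3% (6.92 to 15.7) to 3.49% (2.52 to 4.81) of Dbp reads, from 19.6 and 35.0 estimated reads. Dbp-205 went from 13.2% (9.07 to 18.7) to 20.9% (18.4 to 23.5), from 25.1 and 209 estimated reads. The second transcript table, made from the reads and an index per the deposited notes, gave the same directions: Dbp-202 held 24.5% and 10.5% of Dbp TPM there, and Dbp-205 15.4% and 20.7%. The leading coding form Dbp-201 was at 2.12 and 10.7 TPM. Sphk2, on the opposite strand over Dbp, had 406 and 481 expected counts, and its part in the shares of Dbp forms was not tested.

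Retained-intron forms took smaller shares of reads in the other genes, with overlapping intervals between the animals. They took 9.35% (7.35 to 11.7) and 8.84% (6.41 to 11.8) of Arntl reads, 4.62% (3.75 to 5.72) and 4.28% (3.29 to 5.49) of Clock reads, and 3.74% (3.20 to 4.38) and 4.10% (3.63 to 4.62) of Tef reads. By TPM the shares were 13.7% and 12.9% for Clock, and in the second transcript table they were 21.6% and 22.6% for Tef. The small shares of Clock and Tef thus depend on the measure. Those of Arntl were 7.73% and 8.57% by TPM and 8.18% and 7.72% in the second transcript table.

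Per1 showed a difference between its forms. Per1-202, which starts at 69095217, upstream of the start of the leading form Per1-201 at 69098948, took 12.1% of Per1 reads in replicate 1 (11.0 to 13.3) and 6.72% in replicate 2 (5.77 to 7.79). Its level was 3.47 and 1.47 TPM (log2 ratio -1.19), against 17.8 and 14.3 TPM (-0.31) for Per1-201. In the second transcript table Per1-202 held 16.0% and 9.43% of Per1 TPM. The short form Per1-204, of 496 bases, held 34.0% and 34.7% of Per1 TPM from 4.48% and 4.55% of its reads, and almost none in the second table, so the Per1 level rests partly on how that form is counted.

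Tef had a pair of leading forms with different starts at nearly equal levels. Tef-202, which begins at 81802421, was at 14.2 and 22.3 TPM, and Tef-201, from the start at 81811414, at 13.7 and 21.1 TPM. Both forms were higher in replicate 2 by near the same factor, with log2 ratios of 0.64 and 0.62. The downstream E-box printed above for Tef begins 138 bases before the Tef-201 start, and the upstream one lies inside Tef-202. For Arntl, the leading form Arntl-201 took 81.8% (78.7 to 84.5) and 74.9% (70.6 to 78.8) of reads, and Arntl-206, from a start farther into the gene at 113234623, 8.90% (6.96 to 11.3) and 13.0% (10.1 to 16.5). Arntl-206 was at 0.810 and 0.740 TPM, so most of the lower Arntl level in replicate 2 lay in Arntl-201, at 6.23 and 3.56 TPM (log2 ratio -0.79). Per2 was read almost wholly as Per2-201, with 99.8% and 99.5% of reads. Its short form Per2-202 took 7.26% and 16.8% of TPM from 0.370 and 1.93 reads, which adds to the Per2 ratio, and Per2-201 alone had a log2 ratio of 0.92.

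**Figure D4:**
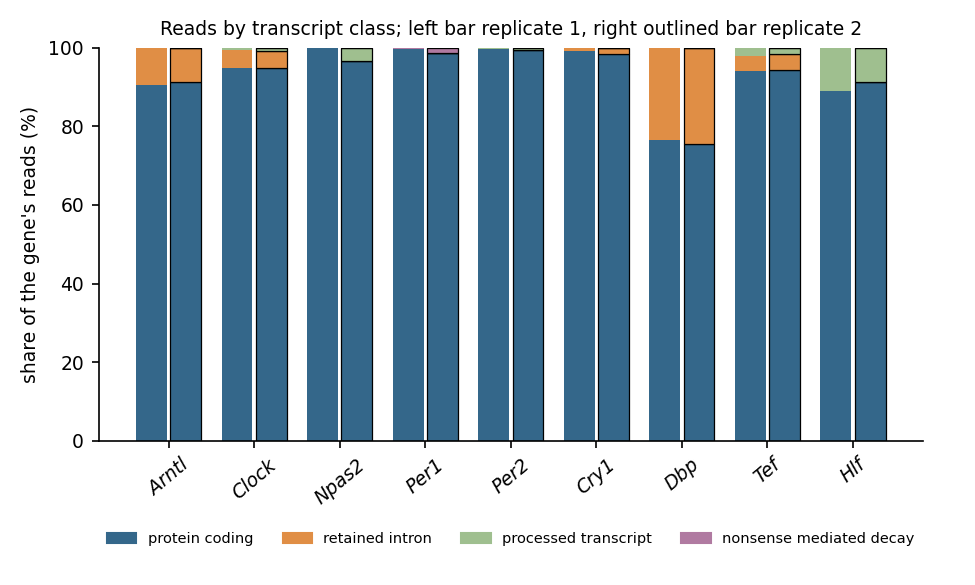
Share of each gene's reads (%) by transcript class for the 9 clock genes with more than 1 annotated form; the left bar of each pair is replicate 1 and the right, outlined bar is replicate 2. Dbp has the largest retained-intron share, 23.5% and 24.4%, and bars of a pair are alike for most genes.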

How the data were processed

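For both libraries the authors deposited 1 gene table and 2 transcript tables on mm10 with GENCODE M21, per the deposited notes. The quantification tools were not given in the sources used here. Gene-level values and most transcript-level values are the authors' expected counts (estimated reads), TPM, FPKM and credibility bounds of TPM of unstated level, and the second transcript table holds estimated counts and TPM. Deposited percent values of transcript share were recomputed from TPM. mm10 is the C57BL/6 sequence, so CAST reads that differ from it may be counted less fully.

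All listed symbols were found. Ratios used log2(TPM + 0.1), and calls the thresholds of 50 counts and 2-fold. List medians used genes of mean TPM 0.5 or more. A chi-square of 35.1 per degree of freedom over 14978 genes put the libraries beyond counting noise, so they are not 1 library listed again, which does not show that they come from separate animals. A count test has no residual degrees of freedom here, and edgeR 4.0.16 gave TMM factors only. The rest ran in Python 3.11.15 with scipy 1.17.1, and the calling rule was tested on simulated data. The members, lists and rules were chosen with earlier results of these data known. Named genes were the members, the 4 other clock lists and, per remaining list, the gene of highest mean TPM and that of largest ratio at a mean TPM of at least 1. Some of these genes are not reported here, although list counts and sums include them.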

Additional observations from a re-analysis of the deposited data

How the results depend on the processing

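The 10 clock genes kept the sign of their ratio in all 10 alternatives that recomputed it: Dbp ranged from 2.07 to 2.43, Nfil3 from -1.06 to -0.80, Arntl from -0.81 to -0.48, Npas2 from -1.67 to -0.68, Per2 from 0.74 to 1.23 and Hlf from 0.31 to 0.87. With pseudocount 1 the gap of activators to repressors was -0.53 and that of Nfil3 to the D-box activators -1.98. The median ratio of all genes was 0.16 with spike-in scaling and -0.11 in the second transcript table, against 0.00.

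Dbp was called under each alternative that recomputed calls. Npas2 was lost (0 clock genes called lower) with pseudocount 1, at a mean count of 200 and at 3-fold. Nfil3 was added (2 called lower) with FPKM, with TPM rescaled over nuclear protein-coding genes, in the second transcript table and with counts scaled to library size. The last of these, and the leading transcript alone, were chosen after seeing the data. Per2 was added (2 called higher) with the exact binomial interval. Of the other clock genes, 0 were called higher with pseudocount 1, at 3-fold and with FPKM, 2 (Per3 and Nr1d1) with spike-in scaling, and 0 were called lower at 3-fold. Over all genes, 52 were called higher and 205 lower. These became 27 and 97 with pseudocount 1, 30 and 110 at a count of 200, 7 and 56 at 3-fold, and 88 and 127 with spike-in scaling. Without a filter 93 were called higher, and 410 were called lower in the second transcript table. The minimum count sets how many genes are tested, whereas 3-fold asks a larger ratio of the same genes. A pseudocount of 1 shrinks the ratios of scarce genes, and spike-in scaling raises all ratios by a nearly common amount. The cause of the other shifts was not tested. Without either animal no ratio can be formed. No paired analysis was possible because there is 1 group. The 38 counts of Npas2 in replicate 2 were the fewest behind any of the 10 genes.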
